A study of Mus musculus with 2 samples.

Results

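Messenger RNAs of the splicing machinery and of the proteins that steer it were examined in cultured mouse neutrophils without and with miR-223. The genes were chosen by name, though with earlier results of these data known. They comprised those whose current symbol begins with Srsf, Hnrnp or Snrp, the SF3a and SF3b subunits, the U2af and Prpf genes, and Lsm2 to Lsm8. Of 18193 genes with a probe set of their own on the array, 68 were such genes, measured by 184 probe sets.

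The knockout culture came from male mir-223 knockout mice and the wild-type culture from male wild-type mice, both of strain C57BL/6. In both, blood-forming progenitors of the bone marrow had been grown for 6 days with G-CSF and SCF, growth factors of the granulocyte lineage. Both cultures received 100 ug/ml cycloheximide, an inhibitor of translation, in the last 8 min. There was 1 Affymetrix 3' expression array for each genotype, and the labels do not say how many mice stood behind a culture. With 1 array per genotype there is no replicate check and no test, and every difference below compares these 2 arrays. The array annotation lists no probe set for Mir223, so the deletion itself was not checked. The lost microRNA yields a pair of mature strands from the X chromosome (build GRCm38.p6, sequences from RefSeq), shown because its loss is what separates the cultures; capitals mark the seed, bases 2 to 8.
miR-223-3p (chrX:96242884-96242905, plus strand): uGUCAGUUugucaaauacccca
miR-223-5p (chrX:96242842-96242864, plus strand): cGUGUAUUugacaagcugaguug

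Splicing removes introns from new transcripts in a particle built anew on each intron. Its core is made of small nuclear RNAs wrapped in a ring of Sm proteins, or of Lsm proteins for the U6 RNA, to which the SF3 subunits, U2af and the Prpf proteins add recognition of the intron ends and the catalytic steps. SR proteins and hnRNPs bind the transcript itself and shift which sites are used. SR genes are known to control their own messages through exons that carry early stop codons, and such messages are destroyed when they are translated. In granulocytes, regulated intron retention is known to accompany maturation.

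Each difference is the knockout value minus the wild-type value of log2(intensity + 16), a scale that shrinks differences of dim probe sets. Every gene was read on its brightest probe set by the mean of both arrays, and counted as expressed when that mean reached the median of all probe sets, an intensity of 33.9. Of the 68 genes, 66 were expressed. Prpf40b lay just inside, at 52.0 on the knockout array and 43.2 on the wild-type array. The imprinted gene Snrpn lay just outside, at 21.6 on the knockout array and 35.0 on the wild-type array. Srsf12 was dim on both, at 7.26 on the knockout array and 5.93 on the wild-type array.

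The arrays had close median intensities, 33.7 for the knockout and 34.1 for the wild type. The median difference of all 11006 expressed genes was -0.00037 and their SD was 0.18. The only spread available was that among several probe sets of a gene. Its pooled SD was 0.14 over 5017 genes and 0.12 over the splicing genes, and it is not a replicate error; the value for all genes is the one used below unless stated. The poly-A spike-ins, bacterial RNAs added before labelling, were lower on the knockout array, with a median of -0.17 over 24 probe sets. The hybridization controls, added after labelling, had a median of -0.11 over 18 probe sets. Scaling would add 0.17 or 0.11 to every difference, so the sign of small values depends on the scale as deposited. All 12 neutrophil lineage markers were expressed, with summed intensities of 168078 on the knockout array and 160055 on the wild-type array. Of these 11 were higher and 1 lower in the knockout, with a median of 0.13. By 0.25 or more, 4 were higher, against 8.07% of all expressed genes, and 1 was lower, Camp (-0.29), against 4.8%. Markers of mast cells and basophils summed to 3082 on the knockout array and 4808 on the wild-type array (5 of 5 lower), and those of eosinophils to 599 on the knockout array and 1005 on the wild-type array (3 of 3 lower). Those of megakaryocytes and platelets summed to 1052 on the knockout array and 1884.5 on the wild-type array (5 of 5 lower). Monocyte and macrophage markers summed to 4920.2 on the knockout array and 4246 on the wild-type array, with 4 of 5 higher. Expressed were 1 of 3 measured B cell markers (0.43), 1 of 3 T cell markers (-0.81) and 2 of 2 erythroid markers (1 higher, 1 lower). Fewer cells of a type and less RNA per cell cannot be told apart in such samples, and the part of these cells in the splicing gene values was not tested.

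Most splicing genes differed little between the arrays, at a share near that of genes equally bright. Their median difference was -0.03, with 27 genes higher and 39 lower in the knockout, against 49.7% of all expressed genes higher. The SD among them was 0.13. A difference smaller than the spread between probe sets was found for 49 of the 66, or 74.2%, compared with 65.7% of all expressed genes. Splicing genes were bright, with 65 of them at or above the 75th percentile of all probe sets. Of the 6768 genes that bright, 67.5% had a difference within the spread. None was higher by 0.25 or more (1.19-fold), against 8.07% of all expressed genes. Lower by that much were 3 of the 66, Lsm7, Lsm3 and Snrpg, against 4.8% of all expressed genes. Among the genes at or above the 75th percentile, 7.62% were higher and 3.66% lower by that much. At 0.5 or more (1.41-fold), 0 were higher, against 1.13% of all expressed genes, and only Lsm7 was lower, against 0.591%. On the poly-A scale 11 of the 66 were higher by 0.25 or more, against 30.8% of all expressed genes, and 1 was lower by that much, against 1.06%.

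The families took different positions. Within the spread between probe sets lay 96.4% of the SR and hnRNP genes. Of the Snrp, SF3, Prpf and Lsm genes 57.1% did, below the 65.7% of all expressed genes. The RNA-binding regulators, SR proteins and hnRNPs, lay around 0, with a median of 0.01 over 28 genes, 18 of them higher. Proteins of the splicing particle itself, the Snrp, SF3, Prpf and Lsm genes, had a median of -0.10 over 35 genes, with 7 higher and 28 lower. With scaling to the poly-A spike-ins the median was 0.19 for the regulators and 0.069 for the particle genes. Scaling to the hybridization controls put them at 0.12 and 0.0042. Such scaling adds a constant to every gene. It turned the sign of the particle median and left the gap of 0.12 between the medians as it was by construction. Of the 35 particle genes, 26 were above 0 on the poly-A scale and 18 on that of the hybridization controls. The U2af genes, of which 2 of 3 were higher with a median of 0.11, were left out of the particle class. With them it held 38 genes, 9 higher and 29 lower, with a median of -0.10. This division was made after the values were seen, and the gap between the medians has no replicate error to set it against. The plot of differences by subgroup shows each gene.

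**Figure D1:**
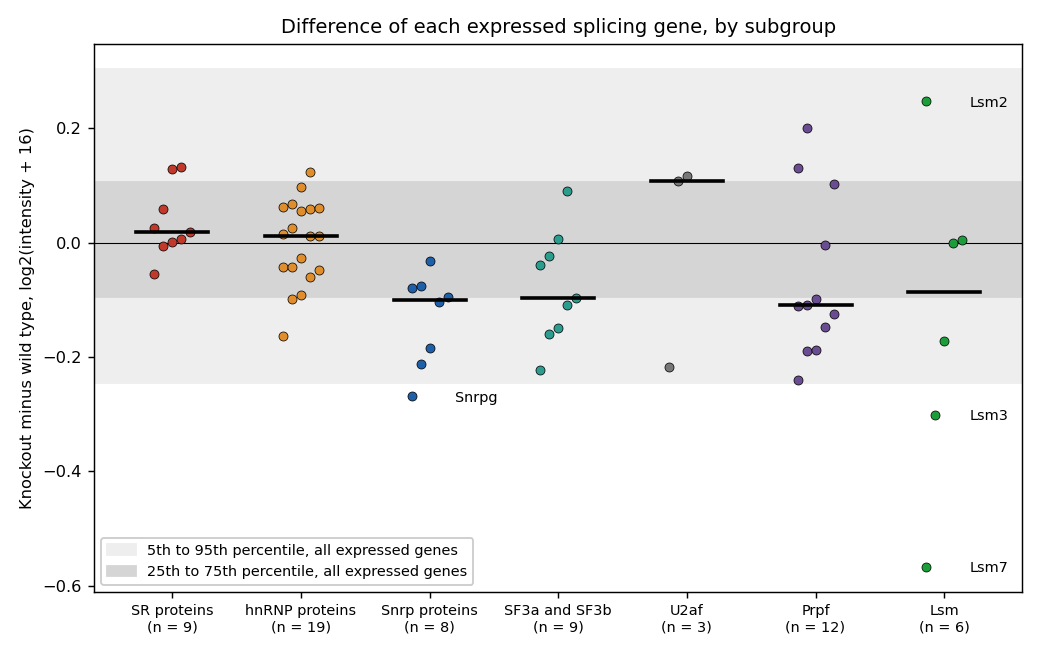
Difference of each of the 66 expressed splicing genes (points, knockout minus wild type, log2 scale) by subgroup, with the subgroup median as a black bar; grey bands hold the central part of all 11006 expressed genes, 1 array per genotype. On the deposited scale all 8 expressed Snrp genes lie below 0 (scaling to the poly-A spike-ins turns their median to 0.073 and to the hybridization controls to 0.0084), SR and hnRNP genes lie around 0, and Lsm7 stands lowest at -0.57.

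SR proteins carry a domain rich in arginine and serine and mostly promote the use of nearby exons. Of the 9 expressed SR genes, 7 were higher and 2 lower. Values ran from -0.05 to 0.13 around a median of 0.02. Srsf2, a regulator known for its mutations in myelodysplastic syndromes in humans, had an intensity of 4502 on the knockout array and 4107 on the wild-type array, a difference of 0.13. Its other probe sets gave 0.29, 0.30 and 0.06, so all 4 were higher in the knockout. Srsf4, with a single probe set, stood at 1373 on the knockout array and 1254 on the wild-type array (0.13). Both lay above the 0.12 spread between probe sets of splicing genes and below the 0.14 of all genes.

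Srsf1, the founding member of the family, was level on its brightest probe set, at 4262 on the knockout array and 4242 on the wild-type array (0.01). The other 5 expressed probe sets were higher by 0.04 to 0.30. Srsf6 was also level at 2818 and 2815 on the knockout and wild-type arrays, with the other 3 probe sets at 0.09, 0.14 and 0.17. Srsf5 (0.03) and Srsf9 (0.02), each with 1 probe set, were near 0. All 14 expressed probe sets of Srsf1, Srsf2 and Srsf6 were thus above 0, the least by 0.001 for Srsf6. These are the 3 of 6 SR genes with several expressed probe sets that kept 1 sign (50%). That share was 51.9% among all genes with several.

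Another 3 SR genes had probe sets of both signs. Srsf3, the smallest SR protein and an adaptor for messenger RNA export, gave -0.01 on its brightest probe set, with the others at -0.03, 0.07, 0.02, 0.04 and 0.51. The last of these read 114.5 on the knockout array and 75.7 on the wild-type array, and was the largest difference of any expressed splicing probe set on the higher side. It stood apart from the other 5 probe sets of the gene, which lay between -0.03 and 0.07. Srsf10, which acts as a repressor when dephosphorylated, gave 0.06, 0.20, -0.02 and -0.13 in order of brightness. Srsf11 gave -0.05, 0.10, 0.02 and 0.17.

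The hnRNPs package transcripts and often hold back exons. All 19 measured hnRNP genes were expressed, 11 higher and 8 lower, with a median of 0.01 and a range from -0.16 to 0.12. Quantile normalization of the arrays put the median at -0.02, so no direction can be given to the family. Hnrnpab, an A/B-type protein, read 9289 on the knockout array and 8518 on the wild-type array (0.12), but its next probe set gave -0.05. The remaining 5 gave 0.02, 0.06, 0.11, 0.01 and 0.03.

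Hnrnpc, which binds runs of uridine and keeps cryptic exons out of messages, was the lowest hnRNP gene. Its brightest probe set read 5951 on the knockout array and 6667 on the wild-type array (-0.16). The other expressed probe set read 778 on the knockout array and 642 on the wild-type array (0.27), so the gene had no common direction. Hnrnpl, which binds CA-rich elements, stood at 573 on the knockout array and 615 on the wild-type array (-0.10) and had 1 expressed probe set.

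Hnrnpdl was the hnRNP gene with the most probe sets on one side. It is related to Hnrnpd, a binder of AU-rich elements. Its 7 expressed probe sets gave 0.06, 0.16, 0.28, 0.32, 0.20, 0.25 and 0.20, from the brightest to the dimmest. The brightest read 5353 on the knockout array and 5134 on the wild-type array, and the most different read 558 on the knockout array and 445 on the wild-type array. With the mean of its probe sets, Hnrnpdl stood at 0.21 in place of 0.06.

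Several further hnRNP genes had probe sets of both signs. Hnrnpa2b1, which also binds RNAs destined for transport, gave -0.04, 0.07, 0.15 and 0.25. Hnrnpu, a nuclear scaffold protein, gave 0.10, -0.06, 0.14, 0.16 and -0.01. Hnrnpr gave 0.01, 0.00, 0.06 and, on a dim probe set, -0.25. None of these 3 genes had 1 sign throughout. Hnrnpd gave -0.03 and 0.14, and Hnrnpul2 gave -0.06 and 0.05.

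Other hnRNP genes had probe sets of their own close to each other. Both expressed probe sets named for Hnrnpa1 alone, a repressor of exon inclusion, gave -0.09. Brighter probe sets that match it and other genes gave 0.05, -0.05 and -0.12, so they had both signs. Hnrnpf, which binds runs of G, gave -0.05, -0.02, -0.05 and -0.04, and Hnrnpk, which binds C-rich RNA, gave 0.02, 0.05, 0.03 and 0.01. Hnrnpf and Hnrnpk were thus level to within 0.06 on every expressed probe set. Hnrnph1 (0.06 and 0.14) and Hnrnpll, a regulator of Ptprc splicing in lymphocytes (0.03 and 0.15), were on the higher side. The genes with 1 probe set each, Hnrnpa0, Hnrnph2, Hnrnph3, Hnrnpm and Hnrnpul1, lay between -0.04 and 0.07.

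**Figure D2:**
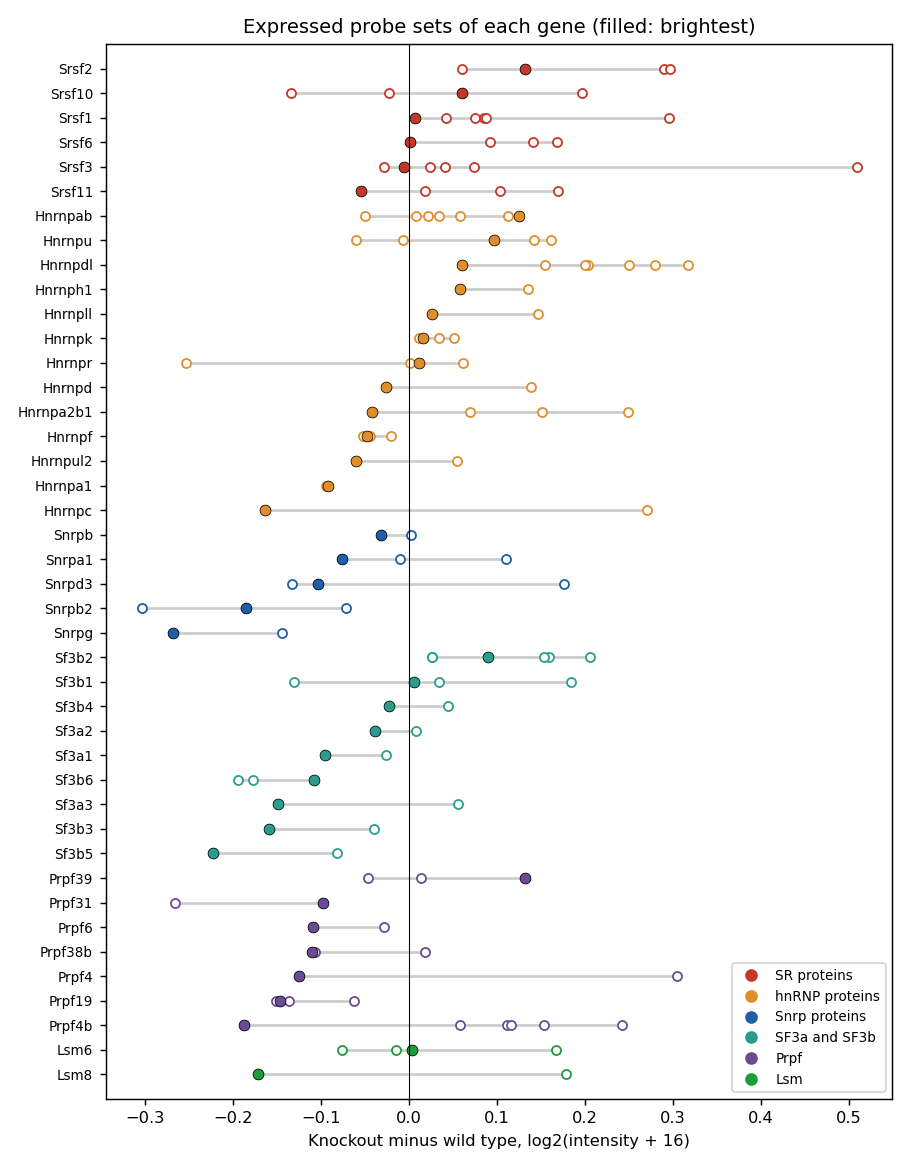
Difference (knockout minus wild type, log2 scale) of every expressed probe set of the 42 splicing genes with 2 or more of them; filled points are the brightest probe set of a gene and open points the others, 1 array per genotype. Hnrnpf and Hnrnpk have tight groups of points, while Srsf3, Hnrnpc, Prpf4 and Prpf4b spread to both sides of 0.

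The Snrp genes encode Sm ring proteins and proteins of the U1 and U2 particles. All 8 expressed genes were lower on their brightest probe set, with a median of -0.10 and a range from -0.27 to -0.03 on the deposited scale, although scaling to the poly-A spike-ins turned the median to 0.073 and scaling to the hybridization controls to 0.0084. Under the other 10 settings it lay between -0.11 and -0.06.

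Snrpg, a Sm ring protein, had the largest difference in this family. It read 5864 on the knockout array and 7065 on the wild-type array (-0.27), and its second probe set gave -0.14. Snrpe, its neighbour in the ring, read 4779 on the knockout array and 5535 on the wild-type array (-0.21) on a single probe set of a class shared between transcripts. Snrpb2, a U2 protein, read 2305 on the knockout array and 2622 on the wild-type array (-0.18), with the other probe sets at -0.30 and -0.07. These 3 genes, the lowest of the family, were lower on each of their 6 expressed probe sets. On the deposited scale they were the only Snrp genes beyond the spread between probe sets. On the poly-A scale Snrpg stood at -0.095, Snrpe at -0.038 and Snrpb2 at -0.012, within that spread. On that of the hybridization controls they stood at -0.16, -0.10 and -0.08. The brightest probe set of Snrpg was also of a class shared between transcripts.

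The rest of the family lay nearer 0. Snrpd3, also of the Sm ring, read 2547 on the knockout array and 2738 on the wild-type array (-0.10), with its dimmer probe sets at 0.18 and -0.13. Snrpa1, a U2 protein, gave -0.08, 0.11 and -0.01, and Snrpb, of the Sm ring, gave -0.03 and 0.00. Snrpf of the ring (-0.08) and the U1 protein Snrpc (-0.10) each had 1 expressed probe set. Probe sets that also match another gene stood on the same side for Snrpd1 and Snrpd2, given with the other observations.

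SF3a and SF3b bind the branch site as part of the U2 particle. Of 9 genes, 2 were higher and 7 lower. Their median of -0.10 became 0.077 on the poly-A scale and 0.012 on that of the hybridization controls. Sf3b5, a small subunit of SF3b, read 2143 on the knockout array and 2503 on the wild-type array (-0.22), with its second probe set at -0.08. Sf3b3, a large scaffold subunit, read 1818 on the knockout array and 2032 on the wild-type array (-0.16), while the second gave -0.04. Sf3b6, which touches the branch point, gave -0.11, -0.19 and -0.18. Its brightest probe set read 2678 on the knockout array and 2888 on the wild-type array. Both probe sets of Sf3a1 were lower as well, at -0.10 and -0.03.

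Not all SF3 subunits shared this side. Sf3b2 read 1855 on the knockout array and 1741 on the wild-type array (0.09), and all 6 of its expressed probe sets were higher, up to 0.21. Sf3b1, the subunit recurrently mutated in human myelodysplastic syndromes, read 3083 on the knockout array and 3069 on the wild-type array (0.01). Its other probe sets gave -0.13, 0.18 and 0.03. Sf3a3 (-0.15 and 0.06), Sf3b4 (-0.02 and 0.04) and Sf3a2 (-0.04 and 0.01) each had a probe set on either side.

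The subunits of U2AF, which reads the end of the intron, stood apart from each other. U2af1, which contacts the terminal AG, read 1615 on the knockout array and 1488 on the wild-type array (0.12). U2af2, which binds the pyrimidine tract, read 1156 on the knockout array and 1346 on the wild-type array (-0.22). The U2af1 paralogue U2af1l4 read 462 on the knockout array and 428 on the wild-type array (0.11). Each rests on 1 expressed probe set, and on the poly-A scale U2af2 stood at -0.04.

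Prpf genes act at several steps, in the U4/U6.U5 particle, in the complex named after Prpf19, and around it. Of 12 expressed, 3 were higher and 9 lower. Their median was -0.11, or 0.064 on the poly-A scale and -0.0013 on that of the hybridization controls. Prpf3, a U4/U6 protein, read 304.5 on the knockout array and 363 on the wild-type array (-0.24). Prpf31, of the same particle and mutated in human retinitis pigmentosa, gave -0.10 and -0.27, and the bridging protein Prpf6 gave -0.11 and -0.03. Prpf19, a ubiquitin ligase, gave -0.15, -0.14, -0.15 and -0.06. Its brightest probe set read 2561 on the knockout array and 2837 on the wild-type array. Prpf8, the large scaffold at the catalytic centre, was level at 2556 on the knockout array and 2562 on the wild-type array.

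Prpf38a, whose yeast counterpart is needed to activate the splicing particle, read 762 on the knockout array and 871 on the wild-type array (-0.19), and Prpf38b gave -0.11, -0.11 and 0.02. Prpf4, the partner of Prpf3, gave -0.13 on the brighter and 0.30 on the dimmer probe set. Prpf4b, a kinase that phosphorylates splicing proteins, read 459.8 on the knockout array and 526 on the wild-type array (-0.19) on its brightest probe set, while the other 5 gave 0.11, 0.06, 0.24, 0.12 and 0.15. With the mean of its expressed probe sets Prpf4b stood at 0.08, so its direction rests on the choice of probe set. On the higher side were Prpf40b (0.20), which was dim, Prpf18, a factor of the later catalytic step (0.10), and Prpf39, with 0.13, -0.05 and 0.01.

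The Lsm genes held the widest spread. Lsm2 to Lsm8 form the ring on the U6 RNA, and Lsm2 to Lsm7 also take part in the cytoplasmic ring that starts messenger RNA decay. Of 6 expressed, 2 were higher and 4 lower, and the SD was 0.28. Their median of -0.086 turned to 0.087 on the poly-A scale, to 0.023 on that of the hybridization controls and to 0.0018 with the mean of probe sets. Lsm7 read 566 on the knockout array and 846 on the wild-type array (-0.57). Lsm3 read 2162.5 on the knockout array and 2667 on the wild-type array (-0.30). In the other direction, Lsm2 read 598 on the knockout array and 501 on the wild-type array (0.248, just under the threshold of 0.25). Each of these 3 rests on a single probe set, so no second one could be set beside it. Lsm7 was still lower with poly-A scaling, at -0.39, and Lsm3 at -0.13.

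Lsm8, the member particular to the U6 ring, read 1588 on the knockout array and 1790.0 on the wild-type array (-0.17), but its dimmer probe set gave 0.18. Lsm4 was level, at 2127 on both arrays. Lsm6 gave 0.00, 0.17, -0.02 and -0.08. Subunits of this ring thus took up positions from -0.57 to 0.248.

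The choice of probe set turned the balance of signs. Of the 42 genes with 2 or more expressed probe sets, 19 had the same sign throughout, or 45.2%, against 51.9% of 5017 genes in all. In 33 of the 42, or 78.6%, the mean of the other expressed probe sets lay above the brightest one, compared with 57.4% of all genes. The median gap was 0.08 in the splicing genes and 0.03 in all. With the mean of expressed probe sets, 36 of the 66 genes were higher and 30 lower, where the brightest probe sets gave 27 and 39. Probe sets of one gene read one RNA sample and can share transcripts, so they are not independent of each other. For 24 of the 66 genes the brightest probe set belonged to a suffix class that can match several transcripts.

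Regulators and particle proteins, a division made after the values were seen, kept their order on the dimmer probe sets of the same genes. Over the other expressed probe sets, 16 of 19 SR and hnRNP genes were higher, with a median of 0.12. Of 23 Snrp, SF3, Prpf and Lsm genes, 12 were higher, with a median of 0.002. The median of all 5017 genes by this measure was 0.03, with 57.8% higher. The gap between the classes was 0.12 here and from 0.08 to 0.16 across the alternatives that could change it, which share the same 2 arrays and so add no replication.

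**Figure D3:**
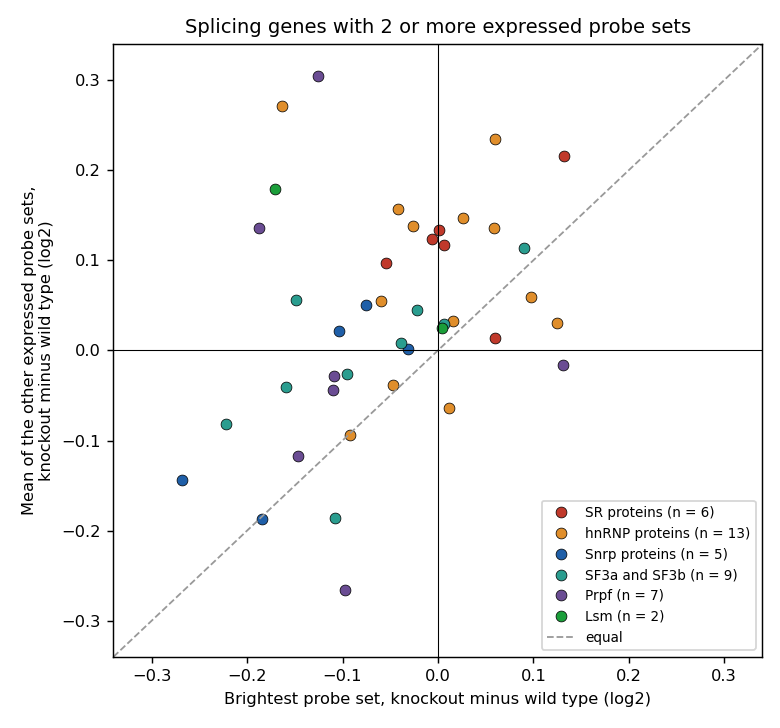
Mean difference of the other expressed probe sets of a gene (vertical) against the difference of its brightest probe set (horizontal), both knockout minus wild type on the log2 scale, for 42 splicing genes coloured by subgroup, 1 array per genotype. Points lie above the dashed line of equality in 33 of 42 genes.

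**Figure D4:**
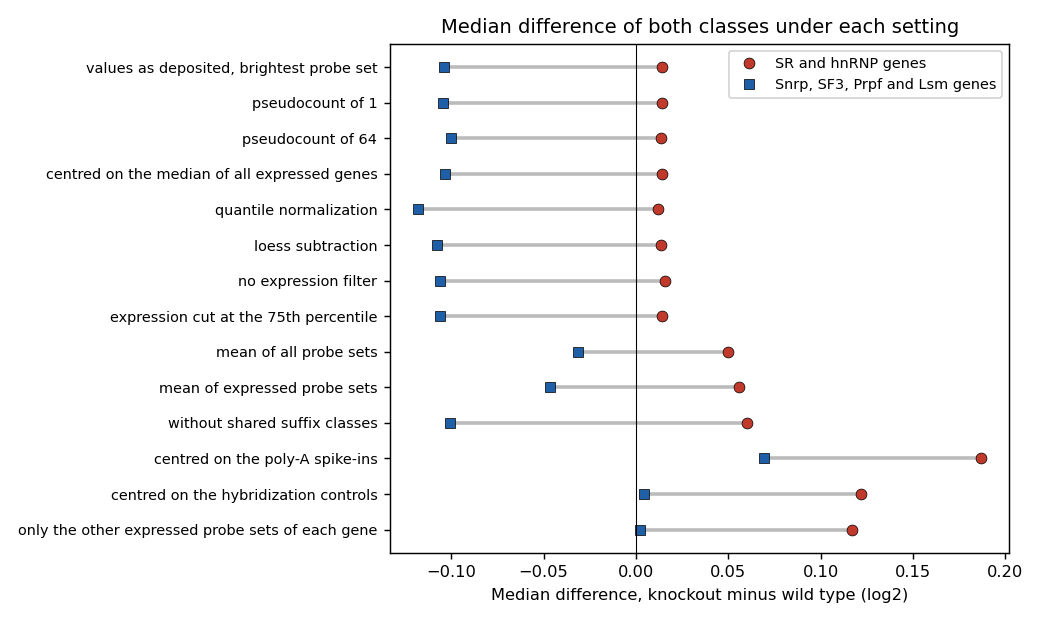
Median difference (knockout minus wild type, log2 scale) of expressed SR and hnRNP genes (circles) and of expressed Snrp, SF3, Prpf and Lsm genes (squares) under each way of processing, 1 array per genotype. The circles lie to the right of the squares in each row; median centring and both control scalings move every gene by a constant and so cannot change the gap. Scaling to either set of controls carries both medians above 0.

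Other genes of the splicing pathway were also near 0. Of 81 measured from a list of 85, 80 were expressed, 35 higher and 45 lower, with a median of -0.01. None was higher by 0.25 or more, against 8.07% of all expressed genes, and 2 were lower by that much, against 4.8%. The 4 highest were Clk4 (0.23), Clk1 (0.20) and Clk2 (0.18), kinases that phosphorylate SR proteins, and Rbm22 (0.18), a protein of the catalytic core. Clk4 read 474 on the knockout array and 403 on the wild-type array, with its other probe set at 0.40, and Clk1 read 1385 on the knockout array and 1206 on the wild-type array. The fourth kinase of that family, Clk3, stood at -0.05.

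Lowest in that list was Ddx23, a helicase of the U5 particle, at 58.0 on the knockout array and 75.7 on the wild-type array (-0.31). Tial1, a binder of U-rich RNA (-0.25, with probe sets up to 0.08), Srpk1, another SR protein kinase (-0.23 and -0.02), and Bud31 (-0.21, with probe sets up to 0.14) followed. Srpk2, of the same list, stood at 0.05, with all 6 of its expressed probe sets higher, up to 0.32. The kinases of SR proteins thus lay on both sides. Of 5 measured genes, from 8 listed, of nonsense-mediated decay, the pathway that destroys messages with early stop codons, 1 was higher and 4 lower, from -0.11 for the helicase gene Upf1 to 0.01 for Upf2.

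Promoters were searched to see what the families share beyond their names. For 58 of the 66 expressed genes RefSeq (build GRCm38.p6) gave at least 1 promoter window, and the 250 bases before the start were searched on both strands. The ETS-type motif CCGGAAG was present for 6 of 7 SF3 genes (Sf3a1, Sf3a2, Sf3a3, Sf3b2, Sf3b3 and Sf3b6). It was present for 3 of 7 Snrp, 3 of 11 Prpf, 3 of 9 SR, 2 of 17 hnRNP, 0 of 2 U2af and 0 of 5 Lsm genes. In all, 17 of the 58 held it, or 29.3%. By comparison, 16.2% of 8960 expressed genes and 7.83% of 27025 genes with a window held it. Sf3b2 was on the higher side and the other SF3 genes with the motif were lower on their brightest probe set on the deposited scale. So were 7 of all 9 SF3 genes. On the poly-A scale these others lay above 0, from 0.014 for Sf3b3 to 0.135 for Sf3a2.

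The GC box GGGCGG was present for 8 of 9 SR, 13 of 17 hnRNP, 4 of 5 Lsm, 6 of 11 Prpf, 4 of 7 SF3, 3 of 7 Snrp and 1 of 2 U2af genes. In all, 39 of the 58 held it, or 67.2%, against 63.4% of expressed genes. It was present for 35.4% of all genes with a window. CCAAT was present for 12 of 17 hnRNP, 6 of 11 Prpf, 3 of 7 Snrp, 3 of 9 SR, 2 of 7 SF3, 1 of 5 Lsm and 1 of 2 U2af genes. In all, 28 of the 58 held it, or 48.3%, against 40.4% of expressed genes and 37.5% of all. The E box CACGTG was present for 5 of the 58 genes, 10.0% of expressed genes and 6.86% of all. These motifs were picked after the values were seen, and a match is a description of the letters only.

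Shown are the 120 bases before the start of the lowest Lsm and Snrp genes and of the highest SR and hnRNP genes. Snrpb2 and 3 SF3 genes, all lower on their brightest probe set, were added for the ETS-type motif in this stretch. Sf3a2 (-0.04) and Sf3b2, which was higher (0.09), also held that motif there and are not shown. Neither is Snrpe (-0.21), which was lower than Snrpb2 and had no match to any motif there. Srsf5, Srsf11, Hnrnpf, Snrpc, Prpf3, Prpf4b and Prpf19 held the ETS-type motif in such a stretch too and are not shown. Of these, Srsf5 was higher on its brightest probe set (0.03) and the others were lower. Capitals mark matches to any of the 4 motifs on either strand, and neighbouring matches may overlap or touch, as both GC boxes of Lsm7 do.
Lsm7 (chr10:80855210-80855329, minus strand): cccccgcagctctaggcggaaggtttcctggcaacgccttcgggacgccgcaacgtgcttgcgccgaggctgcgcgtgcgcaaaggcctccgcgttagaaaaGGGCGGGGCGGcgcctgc
Lsm3 (chr6:91515915-91516034, plus strand): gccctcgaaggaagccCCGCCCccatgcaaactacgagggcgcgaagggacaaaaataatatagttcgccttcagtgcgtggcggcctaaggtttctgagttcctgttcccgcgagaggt
Snrpg (chr6:86371420-86371539, plus strand): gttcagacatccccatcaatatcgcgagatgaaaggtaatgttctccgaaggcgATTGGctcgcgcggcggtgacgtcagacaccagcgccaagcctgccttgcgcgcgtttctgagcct
Snrpb2 (chr2:143062949-143063068, plus strand): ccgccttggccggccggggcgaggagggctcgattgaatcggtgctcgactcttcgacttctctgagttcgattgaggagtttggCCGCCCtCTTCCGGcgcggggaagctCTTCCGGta
Sf3a1 (chr11:4160234-4160353, plus strand): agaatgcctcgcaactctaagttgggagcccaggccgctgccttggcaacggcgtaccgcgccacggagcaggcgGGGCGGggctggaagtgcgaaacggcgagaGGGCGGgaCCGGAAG
Sf3a3 (chr4:124714741-124714860, plus strand): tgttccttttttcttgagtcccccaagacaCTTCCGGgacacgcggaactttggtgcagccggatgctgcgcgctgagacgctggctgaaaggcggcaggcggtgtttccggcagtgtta
Sf3b6 (chr12:4817488-4817607, plus strand): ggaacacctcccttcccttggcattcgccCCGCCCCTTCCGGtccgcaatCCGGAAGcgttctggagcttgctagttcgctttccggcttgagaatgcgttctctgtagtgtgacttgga
Srsf2 (chr11:116853095-116853214, minus strand): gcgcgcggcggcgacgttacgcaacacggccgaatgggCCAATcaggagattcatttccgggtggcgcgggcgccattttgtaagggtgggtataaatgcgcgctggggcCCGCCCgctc
Hnrnpab (chr11:51606882-51607001, minus strand): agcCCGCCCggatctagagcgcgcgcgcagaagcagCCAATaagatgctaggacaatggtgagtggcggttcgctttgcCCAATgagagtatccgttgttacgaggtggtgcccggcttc
Lsm7 and Lsm3, the lowest genes, showed no match but GC boxes, and Snrpg showed an inverted CCAAT. Snrpg also held the ETS-type motif elsewhere in the 250 bases searched, outside the stretch shown. The 3 SF3 genes shown, picked for the ETS-type motif, held it alone in Sf3a3 and beside GC boxes in Sf3a1 and Sf3b6. Snrpb2 carried the ETS-type match at 2 places and a GC box, and Srsf2 and Hnrnpab carried both CCAAT and a GC box.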

How the data were processed

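Total RNA was extracted with Trizol and labelled with the Affymetrix 3' IVT Express kit, per the labels' protocols. The authors deposited, for each array, the linear intensity of every probe set. Background correction, summarization and normalization are steps not given in the sources used here, and values were not centred. Of 45101 probe sets, 64 were controls, 34945 were named for 1 gene and 932 for several by the platform annotation. Symbols were updated through Entrez identifiers with RefSeq genes of GRCm38.p6 where these held the identifier. Differences are knockout minus wild type of log2(intensity + 16). Each gene took its brightest probe set, and 1.19-fold and 1.41-fold stand for 0.25 and 0.5 on that scale. No test was possible with 1 array per genotype. The genes, lists and motifs were chosen with earlier results of these data known. Named genes were up to 4 with the largest differences in each family, any at 0.25 or more, every gene with probe sets of both signs, and the 4 highest and 4 lowest other splicing genes; Hnrnpdl, Clk3 and further genes were named after their values were seen. Alternatives were pseudocounts of 1 and 64, median, quantile, loess (span 0.3), poly-A and hybridization control scaling, no or a stricter expression cut (75th percentile), means of probe sets, and plain probe sets only. The procedure was checked on simulated data. The RefSeq windows were checked to run along the gene's strand. Python 3.11.15, pandas 2.3.3 and statsmodels 0.14.6 were used.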

Additional observations from a re-analysis of the deposited data

How the results depend on the processing

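With a pseudocount of 64, median centring, quantile normalization, loess subtraction, no expression filter, a cut at the 75th percentile and either mean of probe sets, the medians and counts of the splicing genes stayed within the limits set for no change, which were 0.14 for a median and 1.5 times for a count. A pseudocount of 1 and leaving out probe sets of shared suffix classes each gave 2 genes higher by 0.25 or more, where the values as reported gave 0. Scaling to the poly-A spike-ins shifted every value by 0.17. It gave a median of 0.14 for all expressed splicing genes, below the 0.17 of all expressed genes, with 11 higher (16.7%, against 30.8% of all expressed genes) and 1 lower by 0.25 or more and 0 lower by 0.5 or more. Scaling to the hybridization controls, an alternative chosen after seeing the data, gave a median of 0.073, with 2 higher (against 19.1% of all expressed genes) and 1 lower by 0.25 or more and 0 lower by 0.5 or more. On the poly-A scale the subgroup medians were 0.19 for SR proteins, 0.18 for hnRNPs, 0.073 for Snrp genes, 0.077 for SF3, 0.28 for U2af, 0.064 for Prpf and 0.087 for Lsm genes, because the same amount is added to each. Of single genes, 6 moved by more than 0.14 under each mean of probe sets and 6 without shared suffix classes, where 58 of the 66 were left. Among them Hnrnpc stood at 0.04 with the mean of all probe sets and at 0.27 without shared suffix classes, against -0.16 as reported. Hnrnpr stood at -0.25 without shared suffix classes, on a dim probe set that read 61.4 on the knockout array and 76.2 on the wild-type array. No paired analysis was possible because each genotype had 1 array. No array could be left out for the same reason. The number of arrays limits every value, and differences under 0.14 are within the spread between probe sets.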

Other observations

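Of the protein-coding genes that the name rule covers in RefSeq, 8 had no probe set of their own, and 6 of them lay on probe sets that match other genes too. Those values could belong to either gene. The probe set of Snrpd1, a Sm ring protein, and the predicted gene Gm14277 read 1296 on the knockout array and 1498 on the wild-type array (-0.21). That of Snrpd2, also of the ring, and Gm5848 read 4335 on the knockout array and 4909 on the wild-type array (-0.18). A further 2 bright probe sets of Snrpn and its overlapping gene Snurf gave -0.19 and -0.18, while the probe set of Snrpn alone was not expressed. The U1 protein gene Snrpa, on a probe set shared with Gm21559 and Gm5161, stood at 0.03. The 4 probe sets of Hnrnpa3 and Gm6793 ranged from -0.01 to 0.10, near the hnRNP genes with probe sets of their own, and Lsm5 with Gm7846 stood at -0.04. Probe sets shared by Hnrnpa1, Hnrnpa1l2-ps2, Gm10052 and Gm5643 gave 0.05, -0.05 and -0.12.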
